A study of Mus musculus with 108 samples.

Results

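Interferon-stimulated genes are the antiviral and immune genes that cells switch on when they sense interferon or foreign nucleic acid. A list of 41 such genes was followed through an inherited mouse glaucoma, in the optic nerve head (ONH) and in the retina. Members were measured by probe sets annotated to exactly 1 member symbol, and each gene was read from its probe set of highest mean in the tissue. That gave 39 members of 18194 genes with such a probe set. Isg15 and Ifi44 are named only. A member was tested where its log2 signal reached 5 on at least 8 arrays, which left 35 ONH members and 19 retina members, and 35 for the difference between tissues. The rule keeps a gene that is high in a single stage, so counts below refer to tested members and not to the whole list.

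The study used female mice. DBA/2J mice develop pigmentary glaucoma with age, and D2-Gpnmb+ mice, the same strain with a working Gpnmb gene, served as controls without glaucoma. DBA/2J eyes at 10.5 months had no or early glaucoma, in sets 1 and 2 that the labels do not explain, or moderate or severe glaucoma. Controls were also 10.5 months old, those of the ONH labelled as not irradiated, and preglaucoma DBA/2J mice, measured in the ONH, were 4.5 months old. For the ONH there were 10 arrays of control (7 mice), 10 of preglaucoma (7 mice), 10 of no or early set 1 (10 mice), 11 of set 2 (10 mice), 9 of moderate (9 mice) and 10 of severe glaucoma (9 mice). Retina arrays numbered 10 in control (7 mice), 10 in set 1 (10 mice), 10 in set 2 (9 mice), 8 in moderate (8 mice) and 10 in severe glaucoma (9 mice). Because DBA/2J and control mice differ in genotype as well as disease, only comparisons among DBA/2J eyes are free of the Gpnmb difference. The ONH piece also takes in some central retina, choroid and sclera, per the labels.

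Type I interferons bind a receptor of IFNAR1 and IFNAR2, whose kinases activate transcription factors that include STAT2. A complex that holds STAT2 and IRF9 binds the interferon-stimulated response element (ISRE) in the promoters of antiviral genes. Interferon gamma has a receptor of its own and acts at another element, the gamma-activated site (GAS). In nervous tissue, microglia, astrocytes, endothelial cells and neurons can all express such genes.

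To show the response elements, promoter sequences were taken from RefSeq (build GRCm38.p6), whose reference strain is not DBA/2J. Of the 41 members, 33 matched. In the 250 bases before a start site, the ISRE core, which is GAAA, any 2 bases and GAAA again, read on both strands, lay in 11 of the 33 members (33.3%) and in 3.46% of 27025 genes. The GAS core TTCNNNGAA, which reads the same on both strands, lay in 8 of the 33 (24.2%) and in 8.13% of all genes. The 2 motifs share bases in Bst2. Below are the last 160 bases before the start for 5 members that carry ISRE matches and changed in the ONH, and for Irf1, which carries a GAS match. The start is that of the promoter sequence, which for Ifit3 and Oas1a lies inside the span of the gene. Each reads 5′ to 3′ on the gene's own strand, and capitals mark the match, which appears as TTTC on either side of 2 bases where it lies on the opposite strand.
Ifit1 (chr19:34640729-34640888, plus strand): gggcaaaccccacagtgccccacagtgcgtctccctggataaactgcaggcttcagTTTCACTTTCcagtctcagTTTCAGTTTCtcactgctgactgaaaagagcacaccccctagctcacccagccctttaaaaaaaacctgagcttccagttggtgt
Ifit3 (chr19:34583369-34583528, plus strand): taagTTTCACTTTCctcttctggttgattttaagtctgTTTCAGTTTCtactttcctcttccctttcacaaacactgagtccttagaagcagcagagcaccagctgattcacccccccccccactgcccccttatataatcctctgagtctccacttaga
Rsad2 (chr12:26456453-26456612, minus strand): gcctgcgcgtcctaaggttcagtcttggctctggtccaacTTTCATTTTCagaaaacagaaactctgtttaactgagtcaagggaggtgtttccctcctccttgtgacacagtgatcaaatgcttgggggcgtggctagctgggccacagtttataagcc
Oas1a (chr5:120907526-120907685, minus strand): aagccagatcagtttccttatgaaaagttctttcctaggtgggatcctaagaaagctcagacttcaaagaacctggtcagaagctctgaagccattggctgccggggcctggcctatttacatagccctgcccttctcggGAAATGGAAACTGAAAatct
Gbp2 (chr3:142620503-142620662, plus strand): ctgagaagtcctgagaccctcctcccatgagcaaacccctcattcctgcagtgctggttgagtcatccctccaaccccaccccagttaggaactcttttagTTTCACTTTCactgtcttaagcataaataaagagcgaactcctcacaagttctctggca
Irf1 (chr11:53769854-53770013, plus strand): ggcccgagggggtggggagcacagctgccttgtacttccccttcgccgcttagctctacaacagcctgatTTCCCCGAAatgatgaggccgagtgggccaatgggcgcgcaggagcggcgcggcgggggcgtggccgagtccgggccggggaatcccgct
The nearer of 2 matches in Ifit1 began 85 bases before the start and that in Ifit3 122 bases. Single matches began at 120 in Rsad2, and at 59 in Gbp2, and the overlapping 2 of Oas1a at 20 and 14. The GAS match of Irf1 began 90 bases before its start. Members with and without an ISRE match were both among those that changed. In moderate ONH against control, described next, 6 of 9 tested members with a match rose (median difference 0.87), as did 14 of 20 without one (0.72), beside 9.68% of all genes. In moderate retina the counts were 6 of 6 (1.25) and 9 of 12 (0.90), beside 7.08%. For GAS matches they were 4 of 8 (0.64) with and 16 of 21 (0.83) without one in moderate ONH, and 2 of 4 (0.62) and 13 of 14 (0.94) in moderate retina. A match is only a string of letters in this window.

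Arrays were checked first. Gpnmb, the gene that separates the strains, had a median log2 signal of 9.26 in control and between 6.66 and 7.09 in DBA/2J ONH groups, and of 7.71 and between 5.36 and 5.69 in the retina. Against the female label, 1 mouse with 2 severe eyes had low Xist in both tissues. By their correlation with their own group, 7 ONH arrays and 2 retina arrays stood apart. Among them were moderate replicates 5 and 8 and severe replicates 3 and 6 in the ONH, and moderate replicate 2 in the retina. All control mice came from 1 range of mouse numbers, which also held 2 moderate and 3 severe arrays of each tissue. Arrays from 1 mouse were not treated as independent.

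In the ONH, 26 of 35 tested members rose in moderate glaucoma against control, and none fell. Over all 12100 genes tested, 9.68% rose, beside which the members' count is read. All 35 differences were positive, with a median log2 difference of 0.83, beside 0.01 over all genes. In severe ONH 23 of 35 rose and none fell (10.7% of all genes rose), again with 35 positive differences and a median of 0.77, beside 0.00. Of the 35 members, 33 had a control median of at least 5, and 24 of these rose in moderate and 22 in severe ONH. The other 2, Irf7 and Zbp1, had a control median under 5 and can pass the filter through the arrays where they are high. Their results, here and in the ONH comparisons below, are given as description. Between severe and moderate ONH 0 of 35 members passed in limma (1.27% and 2.46% of all genes higher and lower), and 2 were lower at an unadjusted p under 0.05. Without the arrays that stood apart, the moderate count was 29 and the severe count 21. Within the controls' range of mouse numbers alone, with 2 moderate and 3 severe arrays, they were 1 and 4. Counts in these other settings stand without the share of all genes and show only how far a count moved.

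In the retina, 16 of 19 tested members rose in moderate glaucoma against control and none fell, while 7.08% of 11322 genes rose and 8.4% fell. The median difference was 0.91, beside −0.01 over all genes, and all 19 differences were positive. In severe retina 6 of 19 rose and none fell (13.8% of all genes rose), with a median of 0.28 beside −0.02. Against moderate retina, 13 of 19 members were lower in severe retina and none higher, with 21.5% of all genes lower, and the median was −0.52. Without moderate replicate 2 that last count was 5, and without moderate replicate 9 it was 8. With that number range as a factor, moderate and severe counts against control were 10 and 5 in the retina and 22 and 21 in the ONH. Within the controls' range alone, retinal counts were 1 and 11, and 1 member was higher, not lower, in severe than in moderate retina. As for the ONH, counts in other settings stand without the share of all genes and show only how far a count moved. Of the 19 members, 13 had a control median of at least 5, and 10 of these rose in moderate retina and 2 in severe retina. Those 2 of 13 are near the share of all genes that rose in severe retina (13.8%). The other 6 had a control median under 5, and all 6 rose in moderate and 4 in severe retina. A member of that kind can pass the filter through the arrays where it is high. Gbp2 did so with 9 arrays at 5 or more and a highest control of 4.52. These 6 and their part in the 16 of 19 and the 6 of 19 are given as description. Without the filter on low values, 26 of 39 members rose in moderate retina, a count given without its share of all genes. In whole tissue, a change in the number of cells of a type and a change in RNA per cell cannot be told apart.

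**Figure D1:**
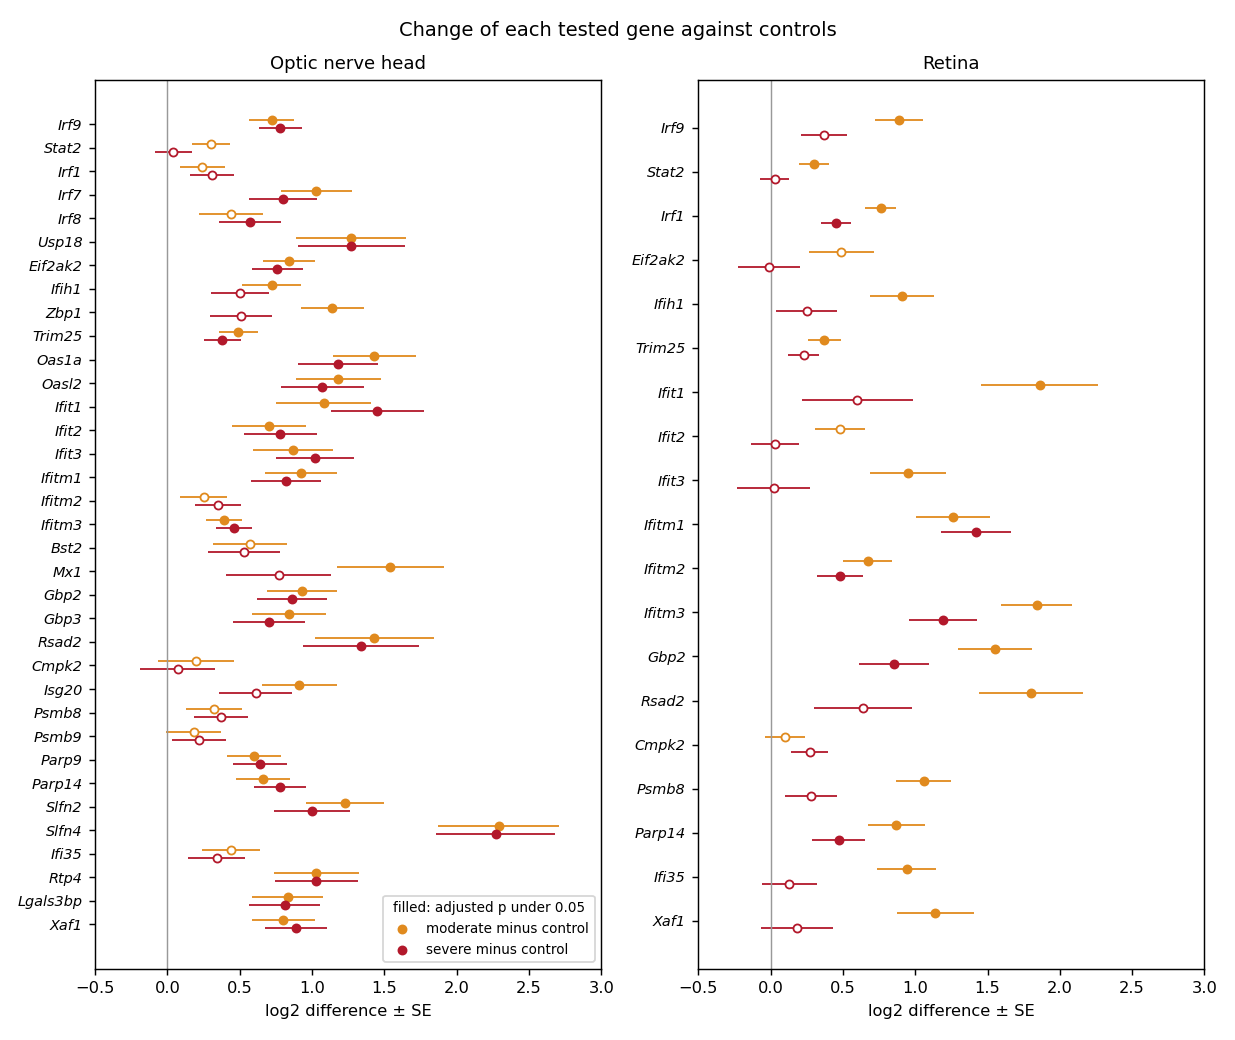
Log2 difference from control of each tested interferon-stimulated gene in moderate (orange) and severe (red) glaucoma, with bars for the SE and filled points where the adjusted p is under 0.05. Genes run from signalling factors at the top to other induced genes at the bottom, and in the ONH all 35 points lie above 0 at both stages, while in the retina the severe point lies right of the moderate one in 2 of 19 genes, Ifitm1 and Cmpk2.

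Of the 5 signalling factors, 2 rose in moderate and 3 in severe ONH. Irf9, the DNA-binding partner of STAT2, had log2 signals in the ONH with a lowest, median and highest value of 7.74, 8.26 and 8.91 in controls, 8.13, 8.54 and 9.28 in no or early, 8.44, 8.90 and 9.64 in moderate and 8.54, 9.07 and 9.32 in severe eyes. It rose in moderate ONH by 0.72 ± 0.153 (SE, adjusted p = 0.000414) and in severe ONH by 0.78 ± 0.149 (adjusted p = 5.72e-05), and 8 of 10 severe arrays lay above the highest control. Retinal Irf9 ran at 6.59, 7.17 and 7.32 in controls, 7.22, 7.82 and 9.26 in moderate and 7.35, 7.46 and 7.66 in severe eyes. Its rise passed in moderate retina (0.89 ± 0.167, adjusted p = 0.000166) and missed in severe retina (0.37 ± 0.158, adjusted p = 0.0656), although no severe array overlapped the controls.

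Irf7 codes for the factor that amplifies type I interferon production. In the ONH it lay at 4.00, 4.32 and 6.06 in controls, 4.52, 5.46 and 6.39 in moderate and 4.34, 5.18 and 6.61 in severe eyes. It rose by 1.03 ± 0.243 in moderate (2.04-fold, adjusted p = 0.00141) and by 0.80 ± 0.237 in severe ONH (adjusted p = 0.00896). With a control median under 5, Irf7 is read with the limit given above. Control replicate 4 stood at 6.06 and the other controls at 4.78 or less, and the groups overlapped with or without that array. In the retina Irf7 was below the filter, with a moderate median of 4.71 against 4.49 in controls.

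Stat2 codes for that partner of IRF9. ONH medians were 6.31 in controls, 6.64 in moderate and 6.29 in severe eyes, and neither difference passed (0.30 ± 0.131, adjusted p = 0.0998, and 0.04 ± 0.128, adjusted p = 0.856). In moderate retina it rose by 0.30 ± 0.106 (adjusted p = 0.0499), with values of 5.81, 6.25 and 6.50 in controls and 5.91, 6.56 and 6.95 in moderate eyes. A second Stat2 probe set, with a lower ONH mean (4.39 against 6.33), was not tested on its own. It differed from control by 0.46 in moderate ONH, 0.44 in severe ONH and 0.08 in moderate retina, so the Stat2 results hold for the probe set used. Irf1, a factor induced by interferon gamma among other signals, did not pass in moderate ONH (0.24 ± 0.155, adjusted p = 0.294). Retinal Irf1 stood at 5.00, 5.30 and 5.54 in controls, 5.75, 5.85 and 6.97 in moderate and 5.53, 5.69 and 6.06 in severe eyes, so that all 8 moderate arrays were above all controls. It rose by 0.76 ± 0.109 (adjusted p = 1.87e-06) and by 0.45 ± 0.103 (adjusted p = 0.000625). Irf8, a factor of microglia and other myeloid cells, rose in severe ONH (0.57 ± 0.217, adjusted p = 0.0453) and was not tested in the retina.

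Usp18 removes ISG15 from proteins and restrains receptor signalling. ONH signals were 5.43, 6.51 and 9.05 in controls, 5.91, 7.91 and 8.54 in moderate and 7.08, 7.90 and 8.82 in severe eyes. It rose by 1.27 ± 0.379 in moderate (2.41-fold, adjusted p = 0.0118) and by 1.27 ± 0.371 in severe ONH (adjusted p = 0.00755). No array in either stage exceeded control replicate 4, which held the 9.05.

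Of the sensors, Eif2ak2 (PKR, a kinase activated by double-stranded RNA) rose in moderate and severe ONH by 0.84 ± 0.179 and 0.76 ± 0.175 (adjusted p = 0.000435 and adjusted p = 0.000733). Ifih1, which codes for the RNA sensor MDA5, rose in moderate ONH by 0.72 ± 0.206 and in moderate retina by 0.91 ± 0.223 (adjusted p = 0.00853 and adjusted p = 0.0033). Zbp1 codes for a sensor of Z-form nucleic acids and, like Irf7, had an ONH control median under 5. It stood at 4.11, 4.53 and 5.56 in control and 4.37, 5.60 and 6.93 in moderate ONH and rose by 1.14 ± 0.218 (adjusted p = 0.000102), with 5 of 9 moderate arrays above the highest control. In severe ONH its difference of 0.51 ± 0.213 did not pass (adjusted p = 0.0694), and in the retina every group median lay between 3.71 and 3.86. A second probe set of Zbp1 had nearly the same ONH mean (4.88 against 5.01). Its group means differed from control by 1.53 in moderate and 1.23 in severe ONH, which was not tested, so the result in severe ONH depends on the probe set. Trim25, a ubiquitin ligase that acts with RIG-I, rose in moderate ONH (0.49 ± 0.133), severe ONH (0.38 ± 0.13) and moderate retina (0.37 ± 0.114), with adjusted p = 0.0055, adjusted p = 0.0234 and adjusted p = 0.0199.

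Oligoadenylate synthetases sense double-stranded RNA and activate RNase L. Both tested members, Oas1a and Oasl2, rose in the ONH at both stages. Oas1a had signals of 4.83, 5.20 and 7.35 in controls, 5.23, 6.05 and 7.11 in no or early, 5.19, 6.87 and 7.99 in moderate and 5.50, 6.58 and 7.93 in severe eyes. Its rises were 1.43 ± 0.286 (2.69-fold, adjusted p = 0.000195) and 1.18 ± 0.279 (2.26-fold, adjusted p = 0.000975). Apart from control replicate 4, at 7.35, controls reached 5.68. Oasl2, an OAS-like protein, rose by 1.18 ± 0.294 and 1.07 ± 0.288 (adjusted p = 0.0025 and adjusted p = 0.00363), from a control median of 6.51 to 7.73 and 7.70. Oas2, Oas3 and Oasl1 were below the filter in both tissues, with ONH control medians of 4.19, 3.76 and 3.18. None of the family was tested in the retina, where Oasl2 ran at 3.33, 3.58 and 4.50 in controls and 4.09, 4.86 and 8.82 in moderate eyes.

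**Figure D2:**
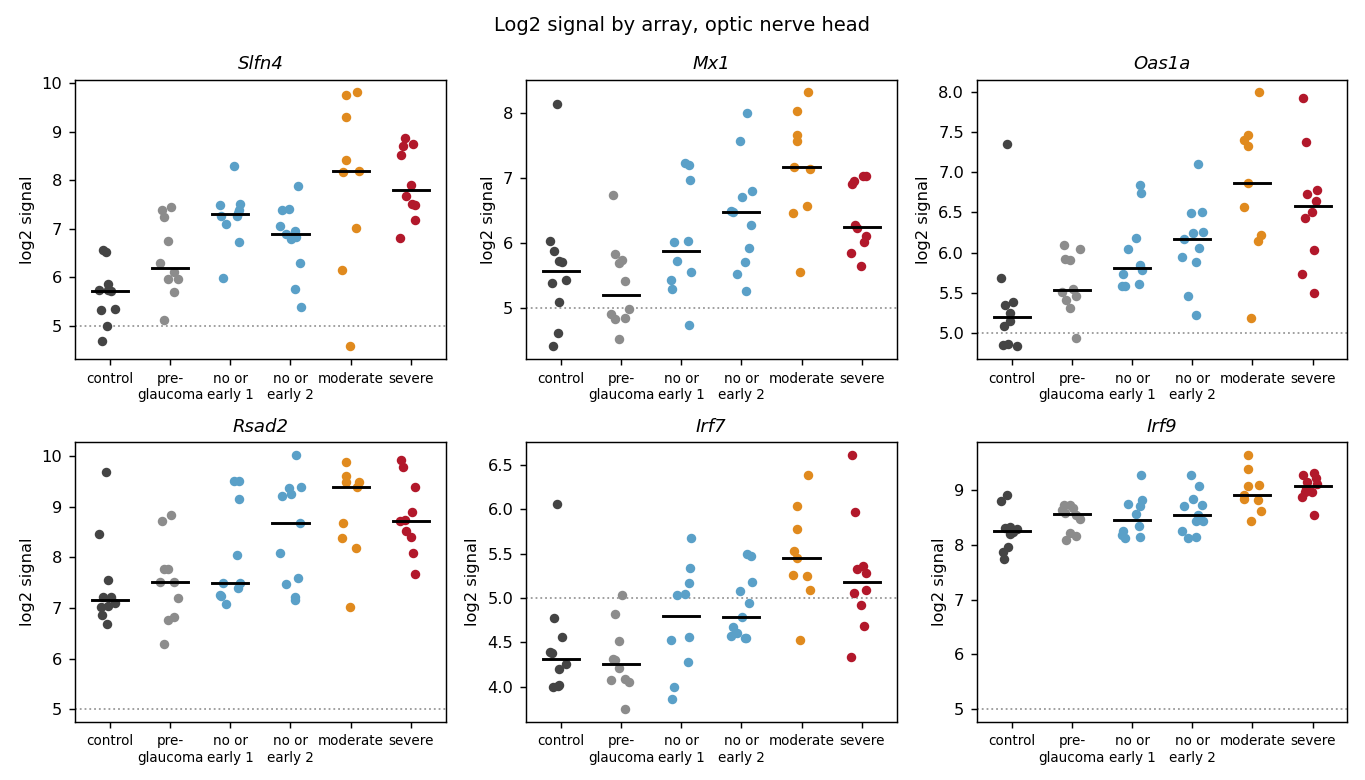
Log2 signal in the ONH of Slfn4, Mx1, Oas1a, Rsad2, Irf7 and Irf9, 1 point per array, by stage group, with a bar at the group median and a dotted line at the filter level of 5. Control replicate 4 is the highest control of Mx1, Oas1a, Rsad2 and Irf7, and moderate replicate 5 is the low moderate array of Slfn4 at 4.58.

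All 3 IFIT genes, whose products bind foreign RNA and block its translation, rose in moderate and severe ONH. These genes lie at chr19:34640889-34650009 (Ifit1), chr19:34550550-34576534 (Ifit2) and chr19:34583119-34588982 (Ifit3) in GRCm38.p6. Ifit1 ran at 6.94, 8.01 and 9.97 in controls, 7.88, 9.09 and 9.63 in moderate and 8.88, 9.51 and 10.37 in severe ONH. Its rise was 1.08 ± 0.328 (adjusted p = 0.0136) and 1.45 ± 0.321 (2.74-fold, adjusted p = 0.000412), and the lowest severe array lay above the control median. Ifit2 rose by 0.70 ± 0.257 and 0.78 ± 0.252 (adjusted p = 0.0423 and adjusted p = 0.0171), and Ifit3 by 0.87 ± 0.276 and 1.02 ± 0.27 (adjusted p = 0.0176 and adjusted p = 0.0032).

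Retinal values of the same genes follow. Ifit1 stood at 4.17, 5.05 and 5.88 in controls, 4.14, 5.15 and 6.52 in no or early, 4.79, 6.45 and 10.40 in moderate and 5.15, 5.52 and 6.39 in severe eyes. It rose by 1.86 ± 0.404 in moderate retina (3.62-fold, adjusted p = 0.00105), where 5 of 8 arrays exceeded the highest control, and the severe difference of 0.60 ± 0.382 did not pass (adjusted p = 0.228). Ifit3 rose in moderate retina by 0.95 ± 0.266 (adjusted p = 0.0106), with moderate values of 6.99, 7.67 and 10.87 against 6.95, 7.23 and 7.48 in controls. Both were lower in severe than in moderate retina, Ifit1 by −1.25 ± 0.401 (adjusted p = 0.0123) and Ifit3 by −0.93 ± 0.264 (adjusted p = 0.00491). The fit shared 1 spread per gene over all retina groups, while the SD of Ifit1 was 1.84 in moderate, 0.426 in severe and 0.519 in control retina. An SE or adjusted p that involves moderate retina can therefore be too small. Ifit2 missed the threshold in moderate retina (0.48 ± 0.175, adjusted p = 0.0561).

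The IFITM genes code for membrane proteins that hinder the fusion of viruses with cells, and all 3 tested, Ifitm1, Ifitm2 and Ifitm3, rose in moderate and severe retina. Ifitm3 had retinal signals of 5.74, 6.74 and 7.05 in controls, 6.31, 7.0 and 7.66 in no or early, 7.46, 8.11 and 10.17 in moderate and 7.12, 7.82 and 8.44 in severe eyes. Neither late group overlapped the controls. It rose by 1.84 ± 0.247 (3.58-fold, adjusted p = 5.33e-07) and by 1.19 ± 0.234 (2.29-fold, adjusted p = 8.82e-05). Ifitm1 moved in the same direction, from 3.96, 4.50 and 4.85 in controls to 4.83, 5.56 and 7.41 in moderate and 4.87, 5.91 and 6.89 in severe retina. Its differences were 1.26 ± 0.254 (adjusted p = 0.000414) and 1.42 ± 0.24 (adjusted p = 8.68e-06), and all 10 severe arrays lay above the controls. Ifitm2 rose by 0.67 ± 0.166 and 0.48 ± 0.157 (adjusted p = 0.00368 and adjusted p = 0.0167).

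ONH levels of this family were compared next. Ifitm3 stood at a control median of 10.76 and rose by 0.39 ± 0.126 and 0.46 ± 0.124 (adjusted p = 0.0212 and adjusted p = 0.00343). Ifitm1 rose by 0.92 ± 0.249 and 0.82 ± 0.244 (adjusted p = 0.00515 and adjusted p = 0.00866), and Ifitm2 did not pass (0.25 ± 0.162, adjusted p = 0.286, and 0.35 ± 0.158, adjusted p = 0.0958). Bst2, or tetherin, which holds budding viruses at the cell surface, did not pass in moderate (0.57 ± 0.253, adjusted p = 0.0994) or severe ONH (0.53 ± 0.248, adjusted p = 0.112).

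Among the interferon-inducible GTPases, Mx1 codes for a dynamin-like antiviral protein. In the ONH it stood at 4.40, 5.57 and 8.15 in controls, 4.73, 6.02 and 8.0 in no or early, 5.55, 7.17 and 8.32 in moderate and 5.64, 6.25 and 7.03 in severe eyes. It rose in moderate ONH by 1.54 ± 0.37 (2.91-fold, adjusted p = 0.00163), and the severe difference of 0.77 ± 0.362 did not pass (adjusted p = 0.116). Gbp2, a guanylate-binding protein strongly induced by interferon gamma, rose in moderate and severe ONH by 0.93 ± 0.245 and 0.86 ± 0.24 (adjusted p = 0.00418 and adjusted p = 0.00487). Retinal Gbp2 ran at 3.59, 4.04 and 4.52 in controls, 3.69, 4.29 and 4.95 in no or early, 4.14, 5.36 and 7.79 in moderate and 4.50, 4.83 and 5.48 in severe eyes. It rose by 1.55 ± 0.256 (adjusted p = 2.36e-05) and 0.85 ± 0.242 (adjusted p = 0.0058), with 7 of 8 moderate and 9 of 10 severe arrays above the highest control. Gbp3 rose in moderate and severe ONH (0.84 ± 0.253 and 0.70 ± 0.248, adjusted p = 0.0128 and adjusted p = 0.0295). Mx2 was below the filter in both tissues.

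Rsad2 codes for viperin, a radical enzyme that makes a chain-terminating nucleotide, and Cmpk2, its neighbour on chromosome 12, for a nucleotide kinase. Rsad2 signals in the ONH were 6.68, 7.15 and 9.70 in controls, 7.02, 9.39 and 9.89 in moderate and 7.67, 8.73 and 9.93 in severe eyes. It rose by 1.43 ± 0.411 (2.7-fold, adjusted p = 0.00841) and 1.34 ± 0.401 (2.52-fold, adjusted p = 0.00959). In the retina Rsad2 ran at 4.51, 4.98 and 5.22 in controls, 5.01, 6.25 and 10.06 in moderate and 4.99, 5.46 and 6.69 in severe eyes. The moderate rise was 1.8 ± 0.359 (3.47-fold, adjusted p = 0.000378), and the severe difference of 0.64 ± 0.339 did not pass (adjusted p = 0.148). Cmpk2 did not pass in either tissue at either stage, with differences from 0.07 to 0.27. Isg20, an RNA exonuclease, rose in moderate ONH by 0.91 ± 0.259 (adjusted p = 0.00793).

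**Figure D3:**
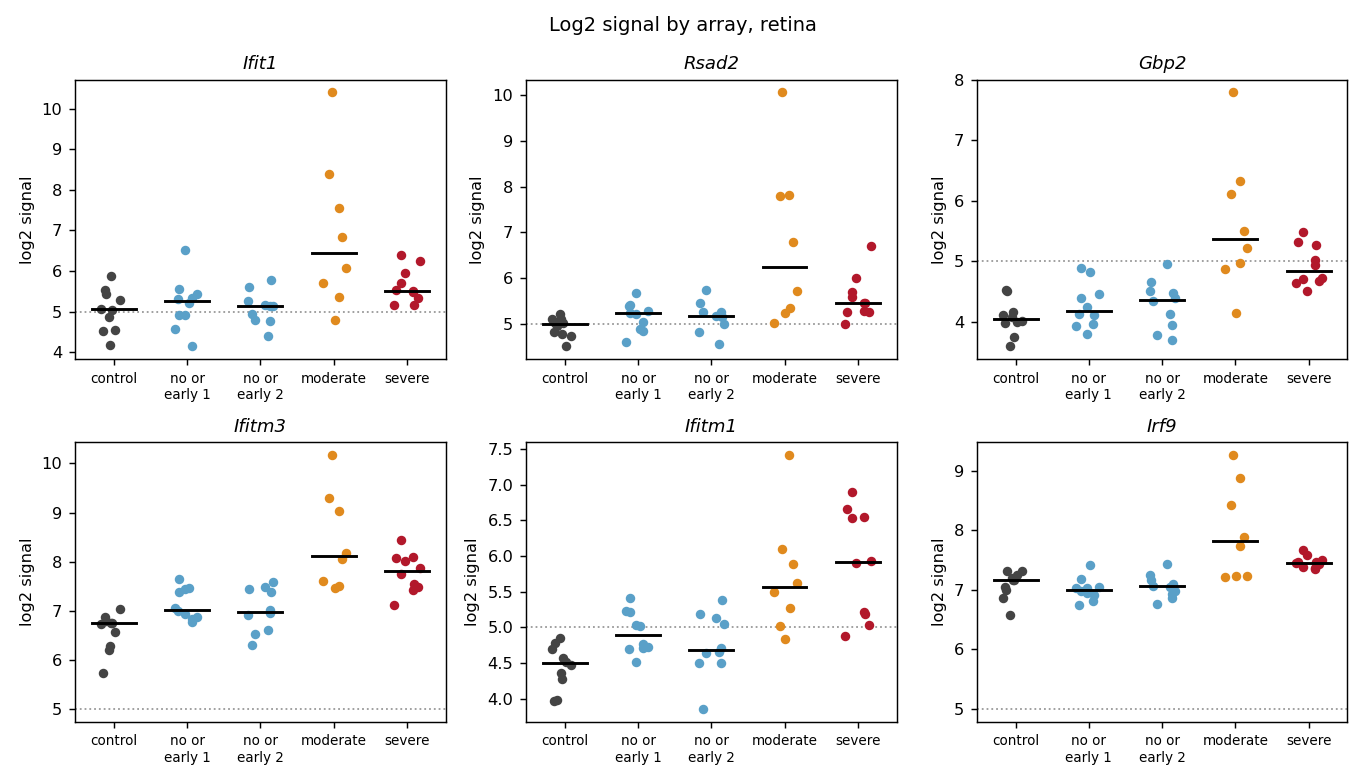
Log2 signal in the retina of Ifit1, Rsad2, Gbp2, Ifitm3, Ifitm1 and Irf9, 1 point per array, by stage group, with a bar at the group median and a dotted line at 5. Replicate 2 is the highest moderate point of Ifit1, at 10.40, and of Rsad2, at 10.06, and the highest of Gbp2, Ifitm3 and Irf9 as well, while for Ifitm1 it is replicate 9, at 7.41.

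Psmb8 and Psmb9 are catalytic subunits of the immunoproteasome, which cuts peptides for MHC class I. Neither passed in the ONH, with differences between 0.18 and 0.37. Psmb8 rose in moderate retina by 1.06 ± 0.19 (2.08-fold, adjusted p = 8.83e-05), from 4.98, 5.36 and 5.43 in controls to 5.35, 6.08 and 8.14, and in severe retina, at 5.23, 5.64 and 5.77, the difference was 0.28 ± 0.18 (adjusted p = 0.244). The ADP-ribosyltransferase genes Parp9 and Parp14 rose together in the ONH. Parp14 differences were 0.66 ± 0.185 and 0.78 ± 0.181 (adjusted p = 0.00709 and adjusted p = 0.000722), with 7 of 10 severe arrays above the highest control, and Parp9 differences were 0.60 ± 0.188 and 0.64 ± 0.184 (adjusted p = 0.0168 and adjusted p = 0.00656). Parp14 also rose in moderate and severe retina, by 0.87 ± 0.195 and 0.47 ± 0.184 (adjusted p = 0.00142 and adjusted p = 0.0475). A second Parp14 probe set, with a retina mean of 4.51 against 5.19, differed from control by 0.34 in moderate and −0.23 in severe retina. It was not tested on its own, so the result in severe retina depends on the probe set.

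The Schlafen genes Slfn2 and Slfn4 act in T cells and myeloid cells of the mouse, and Slfn4 had the largest difference of the 35 tested members in moderate and severe ONH. Slfn4 had signals of 4.68, 5.72 and 6.56 in controls, 5.12, 6.20 and 7.45 in preglaucoma, 5.38, 7.10 and 8.30 in no or early, 4.58, 8.19 and 9.81 in moderate and 6.81, 7.79 and 8.88 in severe eyes. All 10 severe arrays lay above all controls, as did 7 of 9 moderate and 17 of 21 no or early arrays. Slfn4 rose by 2.29 ± 0.42 in moderate (4.89-fold, adjusted p = 5.6e-05) and by 2.27 ± 0.411 in severe ONH (4.83-fold, adjusted p = 2.06e-05). Slfn2 rose by 1.23 ± 0.269 and 1.00 ± 0.263 (adjusted p = 0.000592 and adjusted p = 0.0029), from 5.38, 6.85 and 7.44 in controls to 6.05, 8.03 and 8.95 and to 7.01, 7.69 and 8.42. Both were below the filter in the retina, where Slfn4 medians were 3.27 in controls and 3.77 in moderate eyes.

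The remaining members are induced genes of mixed function. Rtp4, a chaperone of membrane receptors, rose in moderate and severe ONH by 1.03 ± 0.295 and 1.03 ± 0.288 (adjusted p = 0.00815 and adjusted p = 0.00521). Lgals3bp, a secreted galectin-3 ligand, rose by 0.83 ± 0.248 and 0.81 ± 0.243 (adjusted p = 0.0118 and adjusted p = 0.00979). Xaf1, a pro-apoptotic antagonist of XIAP, rose in the ONH by 0.80 ± 0.219 and 0.89 ± 0.214 (adjusted p = 0.00592 and adjusted p = 0.00119). In moderate retina Xaf1 rose by 1.14 ± 0.263 (adjusted p = 0.00194), with signals of 4.69, 5.32 and 5.56 in controls and 5.00, 5.92 and 8.69 in moderate eyes. Ifi35, a leucine zipper protein, did not pass in the ONH and rose in moderate retina by 0.94 ± 0.203 (adjusted p = 0.000994). In severe retina neither gene passed (Xaf1 0.18 ± 0.249, Ifi35 0.13 ± 0.192). Retinal Xaf1 was read from another probe set than ONH Xaf1. The probe set used in the ONH differed from control by 0.59 in moderate and 0.55 in severe retina and was not tested there on its own, so the severe result depends on the probe set.

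Whether members already differed in eyes with no or early glaucoma was asked next. In no or early ONH against control, 2 of 35 members rose, with 2.19% of all genes, namely Slfn4 (1.37 ± 0.354, adjusted p = 0.0181) and Slfn2 (0.94 ± 0.227, adjusted p = 0.00865). The other members did not pass, although 34 of 35 differences were positive and their median was 0.38, while 49% of all genes had a positive difference. For example Oas1a differed by 0.68 ± 0.241 (adjusted p = 0.115) and Irf9 by 0.29 ± 0.128 (adjusted p = 0.244). In the same comparison 5 of 12 microglia and macrophage genes (median 0.40) and 4 of 7 monocyte and neutrophil genes (median 0.76) rose, and their part in the result was not tested. The count of members depended on the arrays used and their weights: without control replicate 4 it was 8, with array weights 16 and without the arrays that stood apart 10. These counts are given without the share of all genes in the same setting. They show how far the count moved and are not read as a result about the members. In no or early retina, 0 of 19 members passed in limma, 3 were higher at an unadjusted p under 0.05 and the median was 0.11, while 0.00883% of all genes rose and 0.0353% fell. In preglaucoma ONH 0 of 35 passed in limma, with 2.21% of all genes higher and 3.87% lower. There 3 members were higher at an unadjusted p under 0.05, and the median was 0.07, while 4 of 12 microglia and macrophage and 3 of 7 monocyte and neutrophil genes rose.

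Within the strain, 3 of 35 ONH members were higher in no or early eyes at 10.5 months than in preglaucoma eyes at 4.5 months, near the share of all genes (9.83%). These groups differ in age, disease stage and range of mouse numbers, which cannot be told apart. Isg20 was higher in no or early than in preglaucoma ONH by 0.77 ± 0.218 (adjusted p = 0.0108), Bst2 by 0.69 ± 0.213 (adjusted p = 0.0199) and Zbp1 by 0.64 ± 0.183 (adjusted p = 0.0118). Their preglaucoma values were 4.38, 5.05 and 5.65 for Isg20, 4.20, 5.05 and 5.81 for Bst2 and 4.24, 4.34 and 5.21 for Zbp1. In no or early eyes they were 4.94, 5.97 and 6.45, then 4.75, 5.62 and 6.79, and 4.55, 5.16 and 5.81, so the ranges overlapped for each gene.

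Comparisons among aged DBA/2J eyes leave the Gpnmb genotype aside. In moderate against no or early ONH, 3 of 35 members rose and none fell (2.85% and 4.62% of all genes), Irf7 by 0.66 ± 0.209 (adjusted p = 0.0391), Zbp1 by 0.61 ± 0.187 (adjusted p = 0.0323) and Irf9 by 0.43 ± 0.131 (adjusted p = 0.0333). Single moderate arrays moved this count: it was 0 without replicate 2, 3 or 8, 1 without replicate 9 and 14 without replicate 5. Shares of all genes are not set beside these counts, which show only how far the count moved. Severe against no or early ONH also gave 3 of 35 higher and none lower (3.35% and 9.88% of all genes), Ifit1 by 0.83 ± 0.273 (adjusted p = 0.0314), Parp14 by 0.50 ± 0.154 (adjusted p = 0.0205) and Irf9 by 0.48 ± 0.127 (adjusted p = 0.00494).

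The same comparisons were made in the retina. In moderate against no or early retina, 15 of 19 members rose and none fell (7.65% and 7.51% of all genes), with a median of 0.85. The largest were Ifit1 (1.74 ± 0.355, adjusted p = 0.000505), Rsad2 (1.56 ± 0.315, adjusted p = 0.000444), Gbp2 (1.34 ± 0.225, adjusted p = 3.07e-05), Ifitm3 (1.33 ± 0.217, adjusted p = 1.95e-05), Xaf1 (1.10 ± 0.231, adjusted p = 0.000664) and Ifit3 (0.97 ± 0.233, adjusted p = 0.00295). In severe against no or early retina 6 of 19 rose (19.9% of all genes), Ifitm1 (1.03 ± 0.207), Ifitm3 (0.69 ± 0.201), Gbp2 (0.64 ± 0.209), Parp14 (0.45 ± 0.159), Irf9 (0.43 ± 0.136) and Trim25 (0.29 ± 0.0929), with adjusted p from 8.86e-05 to 0.0207. The Parp14 rise depends on the probe set, and with the mean of all probe sets its difference became −0.0462. The highest no or early array of Gbp2 was 4.95, so Gbp2 passed the filter through moderate and severe arrays alone. Its part in both counts is given as description, and other members with a control median under 5 are read with the same limit.

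Of the 13 members lower in severe than in moderate retina, the largest differences were in Ifit1, given above, Rsad2 (−1.16 ± 0.356, adjusted p = 0.00921), Xaf1 (−0.96 ± 0.261, adjusted p = 0.00356), Ifit3, Ifi35 (−0.81 ± 0.202, adjusted p = 0.00169) and Psmb8 (−0.78 ± 0.189, adjusted p = 0.00119). Irf9 was lower by −0.52 ± 0.166 (adjusted p = 0.0125) and Stat2 by −0.27 ± 0.105 (adjusted p = 0.0402). The fall of Stat2 holds for the probe set used, and its other probe set differed from control by 0.08 in moderate and 0.15 in severe retina. Ifitm1 was higher in severe than in moderate retina without passing (0.16 ± 0.252, adjusted p = 0.636). For Xaf1 the severe range lay inside the moderate range. Its other probe set differed from control by similar amounts in moderate and severe retina (0.59 and 0.55), so the fall of Xaf1 holds for the probe set used. Ifi35 stood at 7.12, 7.28 and 7.72 in severe and 7.39, 7.97 and 9.63 in moderate retina, so these ranges overlapped too.

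**Figure D4:**
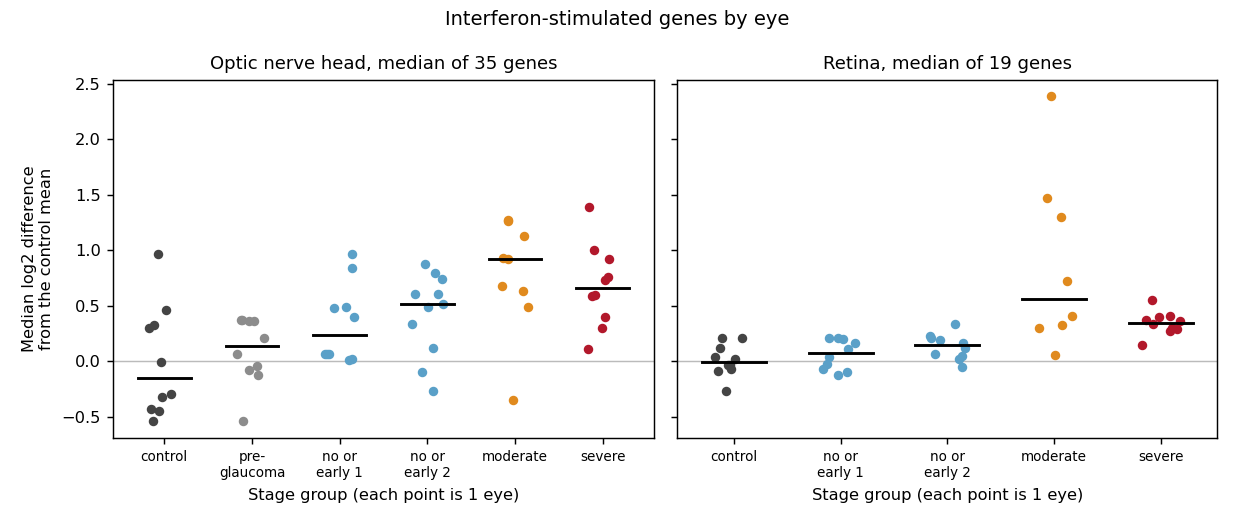
Median over the tested interferon-stimulated genes of the log2 difference from the control mean, 1 point per eye, by stage group, with a bar at the group median. Moderate retinas spread from 0.06 to 2.39 while severe retinas stay between 0.15 and 0.55, and in the ONH 1 control at 0.97 and 1 moderate eye at −0.35 lie far from the rest of their groups.

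Eyes of the same stage differed widely, as a median over members per eye shows. Moderate retinas stood at 2.39, 1.47, 1.30 and 0.72 in replicates 2, 8, 9 and 10, and at 0.41, 0.33, 0.30 and 0.06 in replicates 3, 7, 1 and 4. In replicates 2 and 8, all 19 members exceeded the highest control, while 25.5% and 15.7% of all genes did so. Severe retinas lay between 0.15 and 0.55, controls between −0.27 and 0.21 and no or early retinas between −0.12 and 0.34. So 4 of 8 moderate retinas were above every severe one, and the lowest moderate retina lay within the control range.

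Fellow eyes and fellow tissues of these mice were compared by their values. The mouse with the highest retina, moderate replicate 2, had an ONH at 1.27 in that eye. Its other eye, severe replicate 1 in both tissues, stood at 0.15 in the retina and 0.11 in the ONH, the lowest severe ONH. In the other moderate eyes with both tissues, ONH and retina stood at 1.26 and 1.47 (replicate 8), 0.92 and 1.30 (replicate 9), 0.93 and 0.72 (replicate 10), 1.13 and 0.41 (replicate 3), 0.68 and 0.06 (replicate 4), 0.63 and 0.30 (replicate 1), and 0.49 and 0.33 (replicate 7). In another mouse with a moderate and a severe eye, replicate 3 of both groups, the ONH stood at 1.13 and 1.00 and the retina at 0.41 and 0.36. Moderate replicate 5, measured in the ONH, was at −0.35 with no member above the highest control, while 11.7% of all genes were. It is 1 of the arrays that stood apart.

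Tissues were compared through the difference between ONH and retina of the same eye. In moderate against control, 4 of 35 members changed more in the ONH (3.52% of all genes) and 1 more in the retina (4.57%). Those of the ONH were Slfn4 (2.37 ± 0.42, adjusted p = 0.000142), Mx1 (1.33 ± 0.384, adjusted p = 0.0219), Zbp1 (1.21 ± 0.227, adjusted p = 0.000271) and Slfn2 (0.90 ± 0.269, adjusted p = 0.0277). Ifitm3 was the member of the retina (−1.37 ± 0.279, adjusted p = 0.00083). The 4 ONH members were below the filter in the retina, where a change could be missed. Over all 35 members the median was −0.09 with 15 positive differences, and a difference that did not pass does not show that the tissues changed alike.

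In severe against control, 9 of 35 members changed more in the ONH (8.29% of all genes) and again Ifitm3 more in the retina (−0.72 ± 0.264, adjusted p = 0.0486, 11.2% of all genes). Slfn4 (2.13 ± 0.398), Oas1a (1.05 ± 0.306), Ifit3 (1.02 ± 0.361), Slfn2 (0.96 ± 0.255), Isg20 (0.84 ± 0.279), Irf7 (0.83 ± 0.253), Eif2ak2 (0.78 ± 0.226), Bst2 (0.74 ± 0.258) and Zbp1 (0.61 ± 0.215) were those of the ONH, with adjusted p from 0.000131 to 0.0402. Of these, Ifit3 and Eif2ak2 passed the filter in the retina as well. The other 7 were below it. Without the arrays that stood apart, 6 members in all were called in severe eyes and 8 in moderate eyes, counts given without the share of all genes. In no or early against control, Slfn4 (1.30 ± 0.346) and Slfn2 (0.83 ± 0.222) changed more in the ONH, both with adjusted p = 0.042 (0.905% of all genes).

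Other genes of the pathway were read from a list of 96, of which 82 had a single-gene probe set, 61 were tested in the ONH and 37 in the retina. Of 9 ligand genes with a probe set, 2 passed the filter in the ONH and 1 in the retina. Ifnb1 (interferon beta) had medians of 2.94, 3.06 and 2.96 in control, moderate and severe ONH, and Ifng (interferon gamma) 2.97, 3.11 and 2.79. In the retina Ifnb1 medians were 2.82, 2.74 and 2.66 and Ifng medians 2.72, 2.67 and 2.66, so neither was tested. Ifnz (interferon zeta) ran at 7.42, 8.12 and 8.74 in control, 6.43, 6.78 and 8.18 in moderate and 5.67, 6.44 and 6.84 in severe ONH. It fell in both stages (−1.18 ± 0.168, adjusted p = 5.67e-07, and −1.77 ± 0.164, adjusted p = 6.44e-13), and no severe array overlapped the controls. In the retina it fell in severe eyes (−1.16 ± 0.228, adjusted p = 1e-04) and did not pass in moderate eyes (0.07 ± 0.241).

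Of the receptor genes, 1 of 5 tested rose in moderate and 3 of 5 in severe ONH. Ifnar1 rose in moderate and severe ONH (0.44 ± 0.113, adjusted p = 0.00316, and 0.38 ± 0.11, adjusted p = 0.00707) and did not pass in the retina (0.05 ± 0.0662 and 0.15 ± 0.0626). Ifnar2 rose in severe ONH (0.58 ± 0.183, adjusted p = 0.014) and moderate retina (0.57 ± 0.189, adjusted p = 0.0341). Ifngr1 rose in severe ONH (0.39 ± 0.138, adjusted p = 0.0328) and did not pass in moderate ONH (0.33 ± 0.141, adjusted p = 0.0864). In all, 20 of 61 pathway genes rose and 1 fell in moderate ONH, with a median of 0.35, beside 9.68% of all genes higher and 11.9% lower, and 27 rose and 1 fell in severe ONH, beside 10.7% and 13.5%. In moderate retina 20 of 37 rose and none fell, beside 7.08% and 8.4% of all genes. In severe retina 8 rose and 7 fell, beside 13.8% and 18.2%, so the count of those that fell is near the background. Of the induced genes outside the member list, 14 of 35 rose in moderate ONH, 18 of 35 in severe ONH, 12 of 17 in moderate retina and 5 of 17 in severe retina, where 2 fell.

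Leading pathway genes in moderate ONH were the chemokine Cxcl10 (1.47 ± 0.458), the nuclear DNA-binding gene Ifi204 (1.26 ± 0.285), Ifi27l2a (1.07 ± 0.335), the signalling inhibitor Socs3 (1.04 ± 0.277), the adaptor Sting1 (1.01 ± 0.234) and the ubiquitin ligase family gene Trim30a (0.91 ± 0.209), with adjusted p from 0.000879 to 0.0166. In moderate retina Socs3 rose by 1.86 ± 0.365 (adjusted p = 0.00031), Trim30a by 1.72 ± 0.372 (adjusted p = 0.000993), the GTPase gene Gbp6 by 1.19 ± 0.207, the signalling factor Stat3 by 0.99 ± 0.118 (adjusted p = 3.9e-08), the GTPase gene Irgm2 by 0.98 ± 0.213 and its relative Igtp by 0.87 ± 0.239. Socs3 and Stat3 also respond to cytokines other than interferon.

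Markers of immune and glial cells moved beside the members. Of the microglia and macrophage list, 7 of 12 tested genes rose in moderate ONH and 7 in severe ONH, among them Aif1 (0.94 ± 0.254) and Cx3cr1 (0.80 ± 0.197) in moderate eyes, while P2ry12 (0.11 ± 0.194) and Tmem119 (0.35 ± 0.207) did not pass. The mean of the list ran from 6.33 to 7.41 in control, 6.65 to 7.81 in moderate and 6.95 to 7.68 in severe ONH. Monocyte and neutrophil genes rose too, 5 of 7 in moderate and 7 of 7 in severe ONH, and the mean of that list ran from 5.37 to 6.29, 5.34 to 7.44 and 6.22 to 7.29. The low moderate array, replicate 5, held the lowest moderate value of both lists, 6.65 and 5.34. Of the T, B and NK cell markers, 3 of 9 were tested in the ONH and none in the retina. All 3 had positive differences in moderate (median 0.54) and severe ONH (median 0.69), and Nkg7 rose at each stage (0.56 ± 0.199 and 0.75 ± 0.194, adjusted p = 0.035 and adjusted p = 0.00239), with list means from 3.46 to 4.73 in control, 3.52 to 4.21 in moderate and 3.79 to 4.75 in severe ONH. Ganglion cell genes fell in the ONH, 5 of 7 in moderate (median −0.76) and 6 of 7 in severe eyes (median −3.92). Oligodendrocyte list means had a median of 6.47 in control, 4.58 in moderate and 5.03 in severe ONH, and 1 and 2 of 3 tested genes fell. Severe replicate 6, the ONH array with the highest member median of its group (1.39), had a photoreceptor list mean of 3.86, beside a group median of 10.23.

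In the retina, 5 of 6 tested microglia and macrophage genes rose in moderate eyes and 4 of 6 in severe eyes. The list mean ran from 4.47 to 4.66 in controls, 4.72 to 6.31 in moderate and 4.76 to 5.05 in severe retina. Moderate replicates 2, 8, 9 and 10, which had the highest member medians, also held the highest microglia means, at 6.31, 5.77, 5.35 and 5.13, and the highest astrocyte means, at 10.42, 9.83, 10.02 and 9.65. Astrocyte list means ran from 8.29 to 8.85 in controls and 8.93 to 9.31 in severe retina, and 5 of 6 astrocyte genes rose in moderate and 4 of 6 in severe retina. Means of the ganglion cell list ran from 8.86 to 9.01 in control, 7.95 to 8.77 in moderate and 5.69 to 7.16 in severe retina. The part of these cell types in the changes of the interferon-stimulated genes was not tested.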

How the data were processed

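RNA from single eyes (20 ng) was labelled and hybridised to 108 Affymetrix Mouse Genome GeneChip arrays, 60 of ONH and 48 of retina, from 60 eyes of 50 mice. The authors deposited log2 signals for 45101 probe sets, and the submitters' processing notes name GCOS, RMA and affy. Whether tissues were normalized together is not given in the sources used here. By the platform annotation 34958 probe sets had 1 gene symbol, 932 several and 9211 none, and only the first were used. Array medians ran from 4.88 to 5.23 in the ONH and from 5.02 to 5.16 in the retina. The number of arrays, not a read depth, limits precision.

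Each gene was read from its single-gene probe set of highest mean in the tissue, and kept where log2 signal reached 5 on at least 8 arrays (12100 genes in the ONH, 11322 in the retina, 12595 for ONH minus retina of an eye). Group means were fitted with limma 3.58.1 in R 4.3.3, with all groups of a tissue in 1 fit, no or early sets 1 and 2 averaged with equal weight, and the mouse as a random block (estimated correlation 0.0774, 0.0366 and 0.0885). A gene was called where the Benjamini-Hochberg adjusted p over all genes tested was under 0.05. Fold changes are 2 to the power of the log2 difference. Mice were read from the eye labels.

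The members and lists were chosen with earlier results of these data known. The plan was to describe in full, per comparison, the 6 called members with the largest difference in each direction. Irf7, Irf9 and Stat2 were to be included always. Not every comparison gives all of these, and other members were described more briefly. Up to 6 pathway genes with the largest difference were named, with Ifnar1, Ifngr1, Ifnb1 and Ifng. Figures of arrays lying above controls were added as description. Replicate numbers were not taken as a pairing. Alternatives covered array weights, the probe set rule, the filter, the mouse block, the mouse number, the groups fitted, quantile normalization, a replicate block and left-out arrays. The procedure was tested on simulated data with the same spread in every group. Because moderate retina spread more widely for many members, that test does not cover its unequal spread.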

Additional observations from a re-analysis of the deposited data

Results flagged for a closer look

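In 32 of 270 groups tested, 1 array lay far from the rest of its group for a member, where chance gives about 1 in 20. ONH control replicate 4 held 8 of these, as the highest control of Irf7 (6.06, next 4.78), Usp18 (9.05, next 7.19), Eif2ak2 (8.30), Oas1a (7.35), Ifit2 (9.41), Ifit3 (11), Mx1 (8.15) and Cmpk2 (7.97). ONH moderate replicate 5 held 10, as the lowest moderate array of Usp18 (5.91), Ifih1 (6.79), Ifit1 (7.88), Ifit2 (7.11), Ifitm3 (10.51), Gbp2 (7.30), Psmb9 (5.99), Parp9 (6.05), Slfn2 (6.05) and Xaf1 (7.80). The other ONH values were severe replicate 6, highest for Zbp1 (6.21) and Cmpk2 (7.06), moderate replicate 8, highest for Trim25 (10.25), preglaucoma replicate 5, lowest for Eif2ak2 (5.79), preglaucoma replicate 3, lowest for Ifih1 (6.24) and Parp14 (6.73), and preglaucoma replicate 9, highest for Zbp1 (5.21). Retinal values were moderate replicate 2, highest for Ifit2 (8.30), and 3 arrays each of no or early sets 1 and 2. Those of set 1 were replicate 8 for Stat2 (6.68, highest), replicate 1 for Ifit3 (7.98, highest) and replicate 2 for Parp14 (4.45, lowest). Those of set 2 were the lowest of their group, replicate 6 for Irf1 (5.18), replicate 9 for Ifitm2 (3.72) and replicate 3 for Psmb8 (4.66).

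The change from control differed between ONH and retina, by limma's test of that difference, for 17 gene and stage pairs. In no or early eyes the ONH change was larger for Slfn2 (0.83) and Slfn4 (1.30). In moderate eyes it was larger for Zbp1 (1.21), Mx1 (1.33), Slfn2 (0.90) and Slfn4 (2.37) and smaller for Ifitm3 (−1.37). In severe eyes it was larger for Irf7 (0.83), Eif2ak2 (0.78), Zbp1 (0.61), Oas1a (1.05), Ifit3 (1.02), Bst2 (0.74), Isg20 (0.84), Slfn2 (0.96) and Slfn4 (2.13) and smaller for Ifitm3 (−0.72).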

How the results depend on the processing

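Counts of members called are given here by comparison, with the value of the report first. Shares of all genes in the same settings are not set beside them, so they show only how far a count moved. Within the controls' range of mouse numbers alone, which leaves 2 moderate and 3 severe arrays a tissue, moderate ONH against control fell from 26 to 1, severe ONH from 23 to 4, moderate against no or early and no or early against control to 0 from 3 and 2, and severe against no or early ONH from 3 to 0. In the retina, moderate against control went from 16 to 1, moderate against no or early from 15 to 0, no or early against control from 0 to 1, severe against control from 6 to 11, and severe against moderate from 13 lower to 1 higher. ONH minus retina went from 5 to 0 (moderate), 2 to 0 (no or early) and 10 to 4 (severe). With that range entered as a factor, the counts were 0 for moderate against no or early ONH, no or early against control ONH and its difference between tissues, 10 for moderate retina against control and 4 for severe against moderate retina. Array weights gave 12 (moderate against no or early ONH), 16 (no or early against control ONH), 10 (no or early against preglaucoma), 3 (preglaucoma against control), 1 (severe against moderate ONH), 1 (no or early retina), 11 (severe retina) and 6 (severe against moderate retina). Without the arrays that stood apart, the same order of ONH comparisons gave 11, 10, 3, 1 and 1, severe against no or early ONH gave 1, severe against moderate retina 4, and ONH minus retina 8 (moderate) and 6 (severe). No filter gave 6 (no or early against preglaucoma), 1 (preglaucoma), and 26, 24 and 25 in the retina for moderate against control, moderate against no or early and severe against moderate. Fitting only the groups compared gave 5 (no or early against control ONH, no or early against preglaucoma, severe against no or early ONH), 1 (preglaucoma), 8, 12, 2 and 10 in the retina for moderate and severe against control, severe against moderate and severe against no or early. For moderate against no or early, no within-mouse correlation could be estimated in that setting and none was used. The mean of all probe sets gave 7 (no or early against preglaucoma) and 1 (preglaucoma), quantile normalization 0 for the former, and no mouse block 1 for the latter. The causes were not tested.

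With the replicate number as a block, counts were 26 in moderate and 26 in severe ONH against control, 6 in moderate against no or early ONH, 7 in no or early against preglaucoma, 2 in preglaucoma against control, 15 in moderate retina and 12 lower in severe against moderate retina. Same-numbered arrays correlated over 0.1 in 75 of 145 ONH pairs (median 0.106) and 27 of 92 retina pairs (median −0.00133), and other arrays of different groups in 477 of 1353 (median −0.0175) and 272 of 827 (median 0.00161). Since not every same-numbered pair passed 0.1, the block was kept as an alternative.

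Leaving out 1 array at a time, added after seeing the data, gave ranges of 24 to 29 and 19 to 29 in moderate and severe ONH against control, 1 to 8 in no or early ONH, 0 to 1 in preglaucoma, 0 to 14 and 1 to 5 in moderate and severe against no or early ONH, and 0 to 1 in severe against moderate ONH. In the retina they were 14 to 17 and 5 to 6 for moderate and severe against control, 0 to 0 for no or early, 13 to 16 and 6 to 8 for moderate and severe against no or early, and 5 to 14 for severe against moderate.

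Within the controls' range of mouse numbers alone, 16 retinal differences changed sign among members called in the report or in that setting. Sign changes of members called in neither were not counted. Severe minus moderate became 0.463 (Gbp2), 0.445 (Ifih1), 0.605 (Ifit1), 0.302 (Ifit2), 0.274 (Ifit3), 0.364 (Ifitm3), 0.273 (Irf9), 0.0923 (Psmb8), 0.346 (Rsad2), 0.288 (Stat2) and 0.307 (Xaf1). Moderate minus no or early became −0.7 (Ifi35), −0.174 (Ifit2), −0.033 (Ifit3) and −0.0652 (Xaf1), and moderate minus control −0.124 (Stat2). With the mean of all probe sets, severe minus no or early became −0.0462 (Parp14).

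Signals near the floor of the array limit the retina, where 19 of 39 members were tested.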
